A study of Homo sapiens with 2 samples.

Results

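The histone genes of MRC-5, a fibroblast cell line from human fetal lung, were compared in 2 cultures: 1 that had received a control siRNA, and 1 that had received an siRNA against periostin, each at 10 nM for 48 h. MRC-5 is a diploid line that divides in culture for a limited lifespan. The members were taken by gene symbol: linker H1 genes, the clustered H2A, H2B, H3 and H4 genes (symbols beginning H2AC, H2BC, H3C and H4C), and the replacement variants H2AZ1, H2AZ2, H2AX, H3-3A and H3-3B. Of 93 such entries in the RefSeq annotation, 75 were found on the array through the accession of a spot, among 21743 genes named in this way. They comprised 66 clustered genes, 4 variants, 4 H1 genes that lie outside the clusters, and the pseudogene H2AC2P. RNA of each culture was hybridized to 1 single-colour Agilent array, so there was no replicate culture and no test of any difference could be made.

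Nucleosomes are built from the core histones H2A, H2B, H3 and H4, and linker histone H1 binds the DNA where it enters and leaves them. The clustered genes are transcribed mainly during DNA replication, when a cell must package a second genome, and most of their mRNAs end in a stem-loop instead of a poly(A) tail. The variant genes lie alone, carry introns or poly(A) signals, and supply histones outside of replication as well: H3.3 replaces H3 in transcribed chromatin, H2A.Z marks promoters, and H2A.X is phosphorylated at DNA breaks. The labelling kit named by the submitters primes cDNA from poly(A) tails, so a clustered histone gene is measured here through whatever part of its mRNA could be primed in that way. The part of this in the ratios below was not tested.

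The values below are signals, meaning background-subtracted scanner intensities scaled so that the 75th percentile of both arrays was 377, and log2 ratios, periostin over control siRNA. Signals are compared between the arrays for 1 probe and not between probes. Each of the 89 histone probes was printed once, so the error of a ratio is the one that the scanner software propagates for a spot. It was 0.20 on the log2 scale for most members, covers the spot alone, and leaves out the difference between cultures. Both arrays had like quality, with 58.0% of the spots well above background with control siRNA and 58.9% with periostin siRNA, and no spot of a histone gene carried a saturation or outlier flag. The targeted gene POSTN had a signal of 2638 with control siRNA, which was 280 after periostin knockdown (log2 ratio -3.24, spot error 0.20). All 10 fibroblast markers examined were above background on both arrays, VIM at 189263 and 174022 among them. Of 5 epithelial markers, CDH1 was below background, whereas EPCAM was 3.90-fold higher with periostin siRNA (34.6 and 135) and the summed signal of the list was 3870 in the control culture and 5736 after knockdown. Of the 3 endothelial, 4 leukocyte and 2 smooth muscle markers, PECAM1, LAPTM5 and MYH11 were below background on both arrays. Detected on both were CDH5 at 49.5 and 46.5, VWF at 72.1 and 79.8, PTPRC at 17.6 and 25.1, and DES at 274 and 313. CD74 was above background with periostin siRNA alone (9.57). CD14 was at 287 and 549 (log2 ratio 0.94, spot error 0.20), and made up most of the summed signal of the leukocyte list, 309 and 592. The part of these markers in the histone ratios was not tested.

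A ratio could be given for 70 of the 75 genes. H1-6, H2BC1, H1-8, H4C7 and H2AC2P were below background on both arrays, and among these H1-6 and H2BC1 are known as testis histones and H1-8 as the oocyte H1. The protein-coding genes H4C14, H3C14, H2AC18, H2BC12L and H3-3B matched no spot by accession and were not analysed here, nor were 13 pseudogenes and antisense RNAs. The histone genes did not move as 1 block. Of the 70 genes, 9 were lower by more than 3-fold with periostin siRNA (12.9%, where 2.75% of all 16052 genes with a ratio were), and 0 were higher by more than 3-fold (3.37% of all genes). At 2-fold, 13 were lower (6.42% of all genes) and 3 were higher (7.97%). The ratio was above 0 for 41 of the 70 (54.5% of all genes). At a limit of 2 spot errors, 26 were higher (22.6% of all genes), 23 were lower (17.7% of all genes) and 21 lay within it (59.7% of all genes). The median log2 ratio was 0.18 over 63 clustered genes and -0.91 over 4 variants, beside 0.06 over all genes. In bulk RNA, fewer cells in a given phase of the cycle and less histone RNA per cell cannot be told apart.

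**Figure D1:**
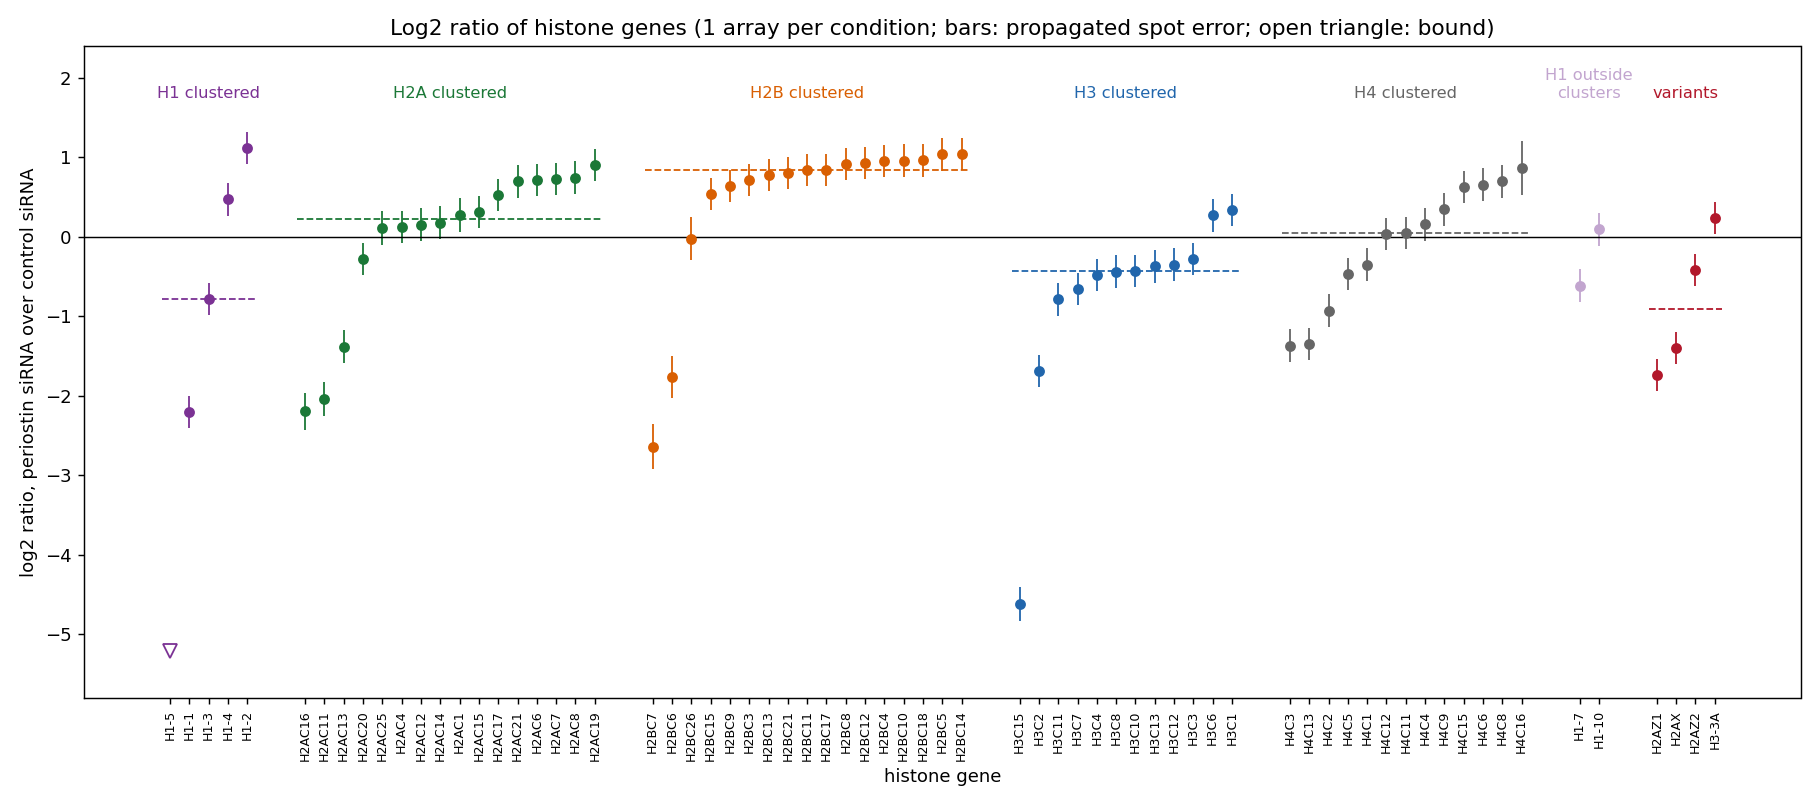
Log2 ratio (periostin over control siRNA) for 69 of the 70 histone genes with a ratio, grouped by family. Points are single spots, bars the propagated spot error, dashed lines the medians of the clustered families and the variants, and the open triangle is the bound of H1-5. The H2B genes lie together near 0.84 apart from 3 genes, most H3 genes lie below 0, and 9 genes were lower by more than 3-fold with periostin siRNA than with control siRNA.

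The family with the highest median was H2B. Of 17 clustered H2B genes with a ratio, 14 were higher by more than 2 spot errors (82.4%, beside 22.6% of all genes). Their log2 ratios lay between 0.54 and 1.04, that is 1.45-fold to 2.06-fold, with an SD of 0.15 between these genes. The median over all 17 was 0.84. For H2BC14 the signal was 3553 in the control and 7311 after knockdown of periostin, for H2BC5 it was 1936 and 3966, and for H2BC12 it was 8071 and 15377. These had the ratios 1.04, 1.03 and 0.93, and lay between 1.91-fold and 2.06-fold. The signals of H2BC18 were 4419 and 8595, of H2BC10 3581 and 6958, of H2BC4 1279 and 2475, and of H2BC8 1209 and 2282. Those of H2BC17 were 3837 and 6865, of H2BC11 419 and 748, of H2BC21 155 and 271, and of H2BC13 6768 and 11597. The lowest ratios of the 14 (0.71, 0.64 and 0.54) belonged to H2BC3 at 1398 and 2289, H2BC9 at 5190 and 8086, and H2BC15 at 348 and 504. Neighbours in this order did not differ beyond their spot error.

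A pair of H2B genes went the other way. H2BC7 was at 73.8 in the control and 11.8 after knockdown (log2 ratio -2.64, spot error 0.28). H2BC6 had signals of 58.3 and 17.1, a ratio of -1.77 with an error of 0.27. Both are dim, and after the normexp correction, which adds an offset of 50 to every spot, their ratios were -0.95 and -0.61. H2BC26, which lies in a small cluster of its own, was at 23.5 and 23.1.

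The H2A genes had a median of 0.22 over 16 genes, with ratios from -2.20 to 0.90. By more than 2 spot errors, 6 were higher (37.5%, beside 22.6% of all genes) and 3 were lower (18.8%, near the 17.7% of all genes). The highest were H2AC19 at 2243 in the control and 4191 after knockdown (0.90), H2AC8 at 1980 and 3312 (0.74), H2AC7 at 9829 and 16235 (0.72), H2AC6 at 1015 and 1664 (0.71) and H2AC21 at 6718 and 10871 (0.69). H2AC17 was at 5937 and 8518 by its brighter probe, a ratio of 0.52, while its second probe gave -0.62, so its direction is not settled. The middle of the family lay within 2 spot errors: H2AC15 at 7563 and 9383, H2AC1 at 64.6 and 78.0, H2AC14 at 7866 and 8891, H2AC12 at 5132 and 5703, H2AC4 at 370 and 402, H2AC25 at 48.4 and 52.2, and H2AC20 at 1731 and 1421. The 3 lowest were H2AC16 with signals of 101 and 22.1, H2AC11 with 189 and 45.9, and H2AC13 with 177 and 67.6. Their ratios were -2.20, -2.05 and -1.39, and under the normexp correction -1.05, -1.12 and -0.94.

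The H3 genes lay on the other side of 0. Of 12 clustered H3 genes, 10 had a ratio below 0, and the median was -0.44. By more than 2 spot errors, 7 were lower (58.3%, beside 17.7% of all genes) and 0 were higher (22.6% of all genes). H3C15, one of the genes of H3.2, had a signal of 1218 in the control and 49.4 after knockdown, which is 24.7-fold lower (-4.62, spot error 0.21). It remained at -3.46 under the normexp correction. H3C2 was at 1390 and 430 (-1.69). The other lower genes differed by less: H3C11 was at 327 and 189, H3C7 at 1007 and 637, H3C4 at 3056 and 2190, H3C8 at 2508 and 1848, and H3C10 at 594 and 439. The second, dimmer probe of H3C10 was at 51.9 and 68.9 (0.41, spot error 0.22), so the direction of H3C10 is not settled. H3C13, another H3.2 gene, was at 9118 and 7033, H3C12 at 732 and 574, and H3C3 at 10517 and 8640, each within 2 spot errors. H3C6 at 3368 and 4053 and H3C1 at 5818 and 7339 were the 2 measured H3 genes of the clusters with a ratio above 0 (0.27 and 0.33), and both lay within 2 spot errors. The stretch of 250 bases before the start of H3C15 is shown because this core histone gene had the lowest ratio of the 4 core families; its RefSeq position is chr1:149852358-149852607 on GRCh38.p14, plus strand, and the capitals mark CCAAT boxes on either strand and the TATA box.
H3C15: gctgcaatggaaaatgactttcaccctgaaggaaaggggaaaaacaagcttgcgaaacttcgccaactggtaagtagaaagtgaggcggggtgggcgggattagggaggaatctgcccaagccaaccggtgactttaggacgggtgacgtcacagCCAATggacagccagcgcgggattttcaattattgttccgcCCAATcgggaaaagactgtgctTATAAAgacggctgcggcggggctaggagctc

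The H4 genes were divided, with a median of 0.04 over 13 genes, and the sign of this median changed under scaling on the median (-0.08). By more than 2 spot errors, 4 were higher and 4 lower (30.8% each, beside 22.6% and 17.7% of all genes). H4C3 had a signal of 27705 in the control and 10704 after knockdown (-1.37). H4C13 was at 5547 and 2179 (-1.35), H4C2 at 3647 and 1915 (-0.93) and H4C5 at 4439 and 3207 (-0.47). These 4 H4 genes were all lower, and 3 of them by an amount over 4 spot errors. H4C8 was at 1686 and 2731, H4C6 at 670 and 1054, H4C15 at 1455 and 2244, and H4C16 at 9.95 and 18.1, with ratios from 0.63 to 0.87. H4C16 lies on chromosome 12, apart from the other genes counted as clustered, and is counted here with them by its symbol. As a dim gene it gave 0.20 under the normexp correction. The others lay within 2 spot errors, from H4C1 at 965 and 756 through H4C12 at 4371 and 4467, H4C11 at 2468 and 2545, and H4C4 at 973 and 1084 to H4C9 at 1031 and 1309. The second probe of H4C4 was lower, at 667 and 269.8 (-1.30), so the probes of this gene gave opposite directions. Between the families, the H2B median exceeded that of the H3 and H4 genes together by 1.19 on the log2 scale. This difference was between 1.13 and 1.19 under the other settings. Settings that shift a whole array by a constant leave such a difference unchanged by construction, so they do not test it.

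**Figure D2:**
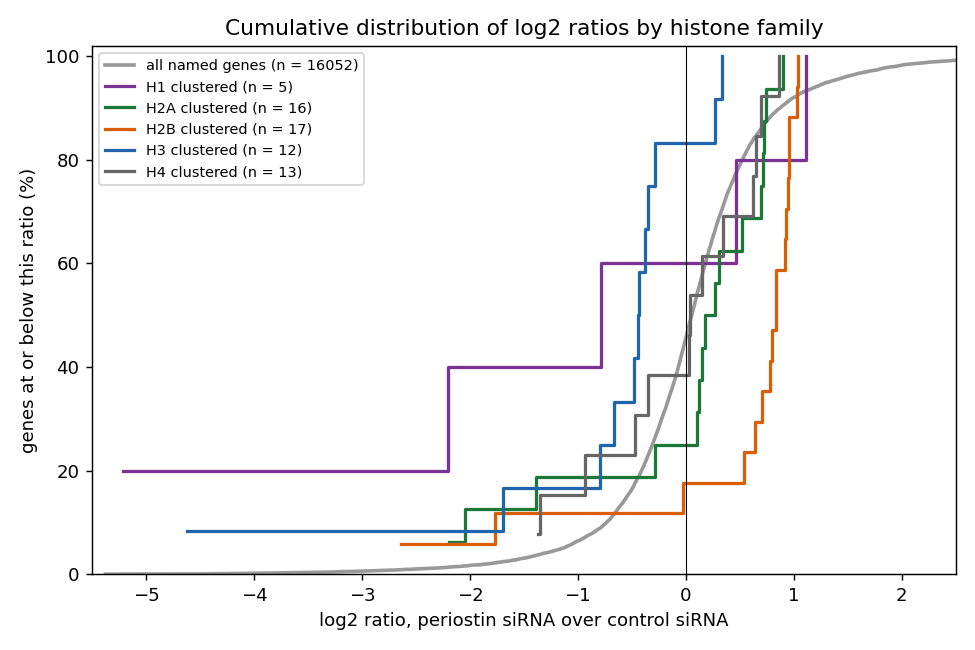
Cumulative share of genes at or below a given log2 ratio (periostin over control siRNA), for the 5 clustered families and for all 16052 named genes with a ratio; H1-5 enters at its bound. Above a ratio of 0 lie 14 of 17 H2B genes and 2 of 12 H3 genes, where 54.5% of all genes do, so the H2B curve is right of that of all genes there and the H3 curve left of it.

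The clustered H1 genes differed widely from each other, from a nominal bound of -5.21 for H1-5 to 1.12 for H1-2. H1-5 had a signal of 316 in the control, while its spot was not well above background after knockdown (8.51). Set against that undetected signal the difference was 37.1-fold, a nominal bound, since the detection limit of this spot was not worked out. H1-1 was at 806 and 175 (-2.20) and H1-3 at 1186 and 688 (-0.79). H1-4 was higher at 1594 and 2206 (0.47). H1-2 was at 11406 and 24765, a ratio of 1.12, the highest of the 70 genes. Of the H1 genes outside the clusters, H1-10 was at 491 and 523, within 1 spot error of no difference. H1-7, a testis histone, was at 82.2 and 53.6 (-0.62). Under the normexp correction H1-5 gave -2.54 and H1-1 -1.94, while scaling on the median turned the sign of H1-10.

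The promoters of H1-5 and H1-2 are shown because they belong to the H1 genes with the lowest and the highest ratio and carry the same motifs. Capitals mark the H1 box, searched as AAACACA, and the CCAAT box, searched as CCAAT, on both strands in the 250 bases before the RefSeq start (GRCh38.p14). H1-5 lies at chr6:27867589-27867838 and H1-2 at chr6:26056471-26056720, both on the minus strand.
H1-5: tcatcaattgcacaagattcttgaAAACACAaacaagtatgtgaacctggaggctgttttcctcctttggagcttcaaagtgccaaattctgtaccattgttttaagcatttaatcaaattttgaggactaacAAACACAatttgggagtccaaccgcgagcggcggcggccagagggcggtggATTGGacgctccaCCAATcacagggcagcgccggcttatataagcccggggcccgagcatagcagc
H1-2: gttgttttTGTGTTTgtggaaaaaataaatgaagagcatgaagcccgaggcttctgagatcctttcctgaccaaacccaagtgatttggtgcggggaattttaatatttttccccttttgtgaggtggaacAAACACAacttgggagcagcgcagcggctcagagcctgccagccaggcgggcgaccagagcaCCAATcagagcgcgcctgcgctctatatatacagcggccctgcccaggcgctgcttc
The H1 box was found before 6 of 6 clustered H1 genes and in 4.82% of the 35116 promoter entries of the table, and the CCAAT box before 6 of 6 and in 32.0%.

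Of the variants, 3 of 4 were lower by more than 2 spot errors (17.7% of all genes) and 0 were higher by that limit (22.6% of all genes). H2AZ1 had a signal of 14276 in the control and 4272 after knockdown, which is 3.34-fold lower (-1.74, spot error 0.20), and H2AX had 3531 and 1339, 2.64-fold lower (-1.40). H2AZ2, which encodes the other H2A.Z protein, was at 16949 and 12661 (-0.42), so that the gap between the H2A.Z genes was larger than their spot errors. H2AZ2 passed the limit narrowly, at 2.06 spot errors, and without scaling its ratio was -0.38, within 2 spot errors. H3-3A was at 65800 and 77509 by its brightest probe (0.24), and its other 3 probes gave 0.29, 0.41 and 0.43. Under the normexp correction H2AZ1 and H2AX, both bright, gave -1.75 and -1.34. The gap of 1.09 between the clustered and the variant medians was not a gap between uniform groups: H2AZ1 and H2AX lay beside the lower clustered genes and H3-3A beside the H4 genes near 0. With the H1 genes outside the clusters counted among the variants the gap was 0.60, and with genes of the same protein counted once it was 1.50.

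**Figure D3:**
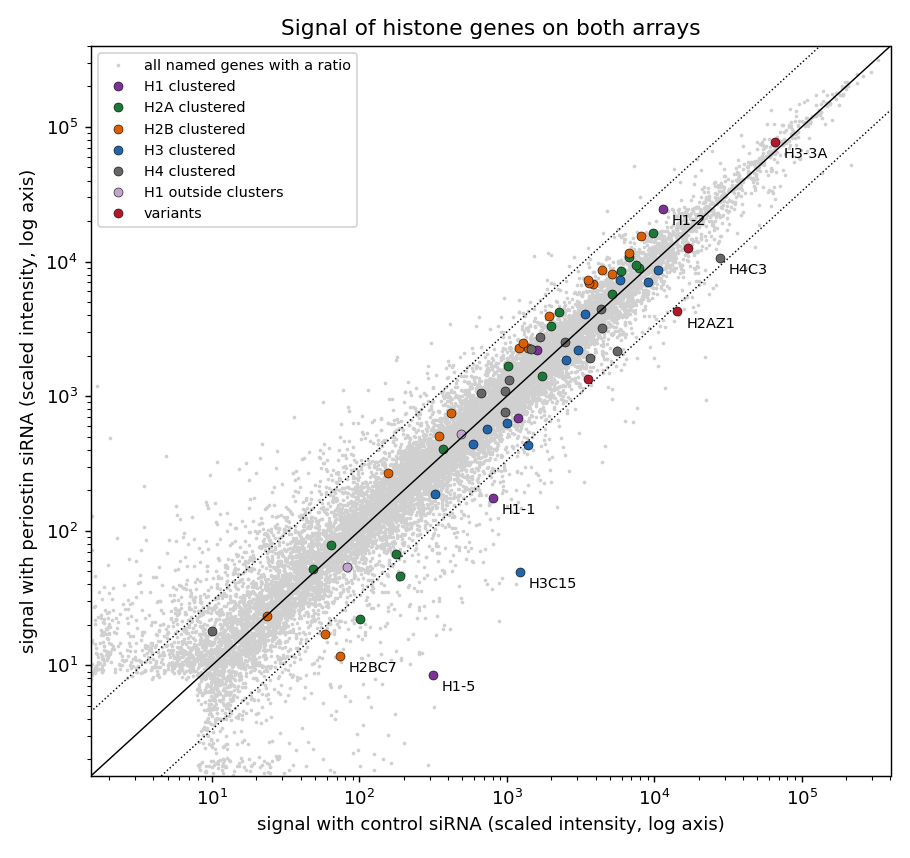
Signal with periostin siRNA against signal with control siRNA on log axes, scaled to a common 75th percentile, for histone genes (coloured by group) and for all named genes with a ratio (grey). The solid line marks equal signals and the dotted lines 3-fold differences; 9 histone genes lie below the lower dotted line, from H2BC6 at a control signal of 58.3 to H2AZ1 at 14276, and 0 above the upper one.

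The ratios of the clustered genes differed with the signal level of the spot. Of the 9 genes lower by more than 3-fold, namely H1-5, H3C15, H2BC7, H1-1, H2AC16, H2AC11, H2BC6, H2AZ1 and H3C2, 4 had a control signal under 200. Under the normexp correction 4 of the 9 remained past 3-fold, H1-5, H3C15, H1-1 and H2AZ1. Among clustered genes with a control signal of 1000 or more, the median ratio was 0.41 over 42 genes, beside 0.0032 over all genes of such signal. Lower by more than 3-fold were 2 of these 42 (4.76%, beside 1.82% of all genes of such signal). Among clustered genes under 1000 the median was -0.35 over 21 genes, beside 0.094 over all genes under 1000. Of these 21, 6 were lower by more than 3-fold (28.6%, beside 345 of 10785 genes of such signal). No clustered gene of either kind was higher by more than 3-fold, beside 0.475% and 4.78% of all genes. The part of signal level in the direction of the ratios was not tested.

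Many histone genes encode the same protein, and their mRNAs share most of the coding sequence, so a probe may not tell the copies apart. RefSeq lists such genes under each other's symbols, and these lists gave 8 groups, 6 of which had ratios for more than 1 gene. Probes of 1 group often disagreed. In the H2B group of H2BC4, H2BC6, H2BC7, H2BC8 and H2BC10, 3 genes lay between 0.92 and 0.96 while H2BC6 and H2BC7 were lower, a span of 3.60. In the H2A group of H2AC11, H2AC13, H2AC15, H2AC16 and H2AC17 the ratios ran from -2.20 to 0.52, with 2 of 5 above 0. The 10 genes of H3.1 ran from -1.69 to 0.33, the H3.2 genes H3C13 and H3C15 differed by 4.25, and the 13 measured genes of H4 ran from -1.37 to 0.87. Which copies each probe binds was not tested, since probe sequences were not used here. H3C14, which encodes the same protein as H3C15, and H4C14, whose 250 bases before the start are identical to those of H4C15, matched no spot. H4C11 and H4C12, whose 250 bases match at 245 positions, had ratios of 0.04 and 0.03. A longer RefSeq transcript of H3C4 starts where H2AC7 starts, with all 250 bases in common, and their probes gave -0.48 and 0.72.

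**Figure D4:**
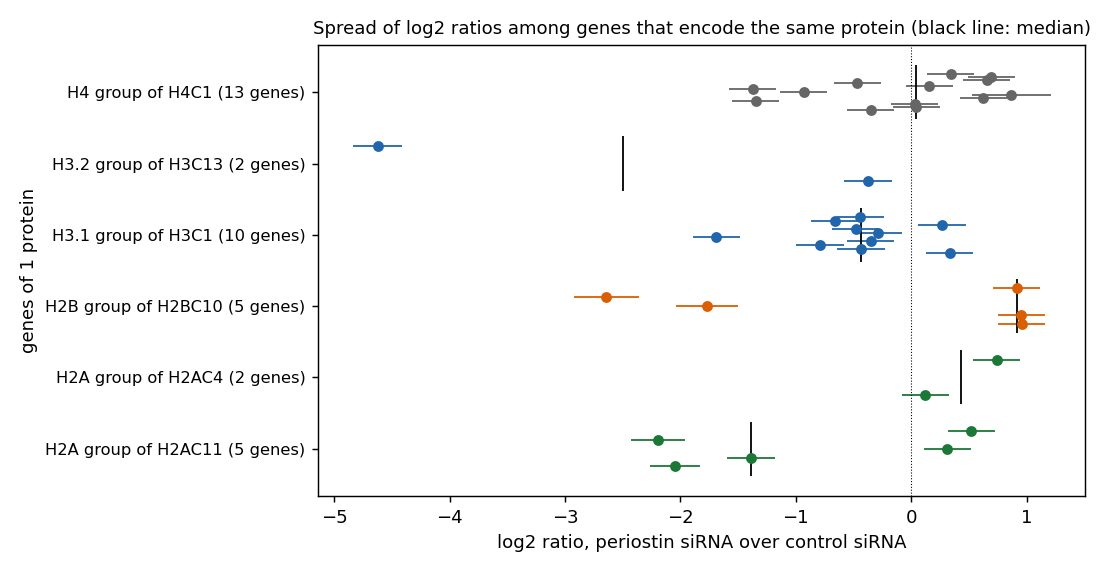
Log2 ratio (periostin over control siRNA) for genes that encode the same protein, 1 row per group with ratios for at least 2 genes; points are single spots, bars the propagated spot error and black lines the group medians. The points span more than 2 log2 units in 5 of the 6 groups, all but that of H2AC4.

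For 12 histone genes more than 1 probe was measured. The probes had the same sign for 9 of them and opposite signs for H2AC17, H4C4 and H3C10. The largest gap between probes of 1 gene was 1.46, that of H4C4. Among the 3 H2B genes with a second probe, that of H2BC12 was at 2864 and 5746, and that of H2BC18 gave 0.76 beside 0.96. The second probe of H2BC21, at 34.6 and 42.0, gave 0.28 with a spot error of 0.23, which is within 2 spot errors, beside 0.80 for the brighter probe. The 9 genes lower by more than 3-fold each had 1 probe, so none of them could be checked in this way.

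A small set of clustered genes is known to give polyadenylated transcripts in cells that have stopped dividing: H2BC21, H2BC12, H2BC5, H2BC4, H2AC6 and H1-2. All 6 had ratios above 0, from 0.71 to 1.12, with a median of 0.94, and 6 of 6 were higher by more than 2 spot errors (22.6% of all genes were). For H2BC21 this holds for the brighter probe and not for the second, which gave 0.28 with an error of 0.23. Without them the median of the other 57 clustered genes was 0.12, and 20 of the 57 were still higher by that limit, so the higher ratios were not limited to this set. Most genes of the set are H2B genes, a family with a median of 0.84, and H2BC14 outside the set had 1.04. The set and the family cannot be told apart by these medians.

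H2A and H2B genes often lie head to head and share the DNA between their starts. The RefSeq promoter table gave 11 such pairs, with 194 to 248 bases between the starts, and both genes had a ratio in 10. The H2B gene had the higher ratio in 8 of the 10 pairs, but not all gaps were large. The H2B ratio minus the H2A ratio was 0.17 for H2BC8, 0.23 for H2BC15, 0.24 for H2BC4 and 0.32 for H2BC17. In the other direction it was -0.13 for H2BC26. Each of these gaps was smaller than 2 spot errors of either gene, so the order within these pairs is not settled. In 6 pairs the ratios differed by less than 1, for example H2AC8 at 0.74 and H2BC8 at 0.92, or H2AC6 at 0.71 and H2BC4 at 0.95. In the other 4 they differed by more than 1. H2AC11 was at -2.05 beside H2BC11 at 0.84, H2AC13 at -1.39 beside H2BC13 at 0.78, and H2AC20 at -0.28 beside H2BC21 at 0.80. H2AC7 at 0.72, by contrast, exceeded H2BC7 at -2.64. H2AC20 lay within 2 spot errors, and the second probe of H2BC21 gave 0.28. H2AC11, H2AC13 and H2BC7 are dim, with control signals of 189, 177 and 73.8. Under the normexp correction H2AC11 gave -1.12 beside H2BC11 at 0.73, H2AC13 -0.94 beside H2BC13 at 0.78, and H2BC7 -0.95 beside H2AC7 at 0.71.

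**Figure D5:**
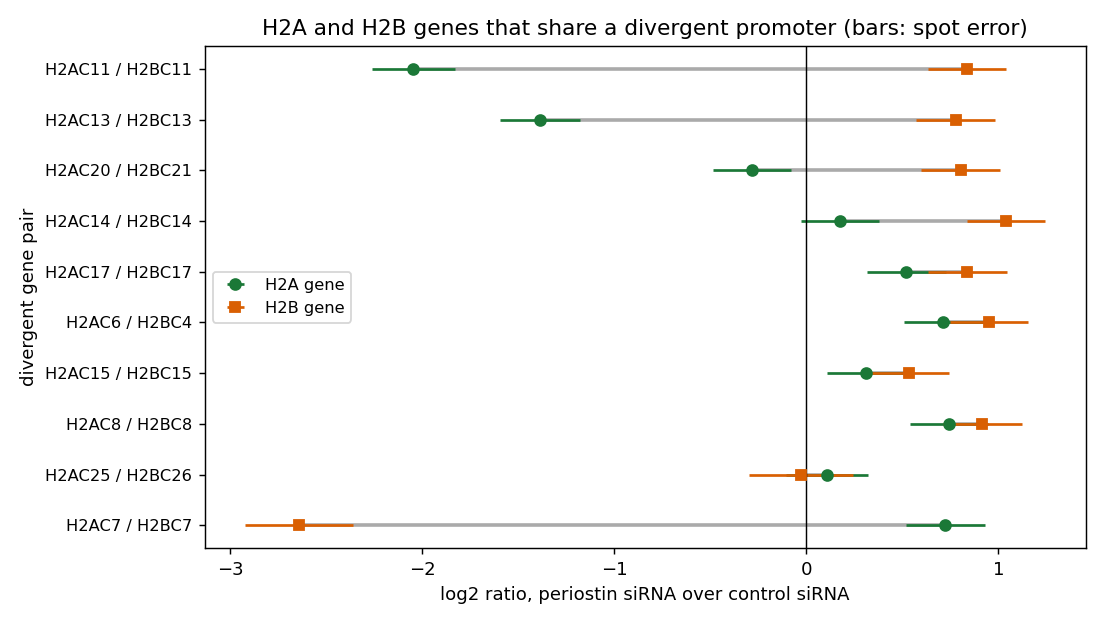
Log2 ratio (periostin over control siRNA) for 10 pairs of head-to-head genes, circles for the H2A gene and squares for the H2B gene, with the propagated spot error as bars. In H2AC11 and H2BC11, H2AC13 and H2BC13, and H2AC7 and H2BC7 the members lie on opposite sides of 0 by more than 2 log2 units. These gaps were smaller under the normexp correction.

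The DNA of the pairs with the widest gaps is shown for H2BC7, read towards the start of H2BC7, and for H2BC11, read towards the start of H2BC11, with the octamer and the CCAAT box in capitals. H2BC7 lies at chr6:26199266-26199515 on the plus strand and H2BC11 at chr6:27132796-27133045 on the minus strand of GRCh38.p14, and H2AC7 and H2AC11 start within these windows on the opposite strand.
H2BC7: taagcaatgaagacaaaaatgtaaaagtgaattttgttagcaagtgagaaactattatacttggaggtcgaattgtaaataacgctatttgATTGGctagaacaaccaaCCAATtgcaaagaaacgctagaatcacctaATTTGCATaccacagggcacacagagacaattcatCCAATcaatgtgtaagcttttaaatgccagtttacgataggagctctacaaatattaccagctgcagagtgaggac
H2BC11: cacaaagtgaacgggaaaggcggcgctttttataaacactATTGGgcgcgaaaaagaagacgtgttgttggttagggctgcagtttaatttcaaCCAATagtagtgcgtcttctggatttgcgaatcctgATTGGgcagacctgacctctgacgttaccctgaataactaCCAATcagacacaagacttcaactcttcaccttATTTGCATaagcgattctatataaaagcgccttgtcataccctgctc
The octamer, known as a binding site of OCT1 in H2B promoters and searched as ATTTGCAT on both strands, was found before 14 of 18 clustered H2B genes and 11 of 16 H2A genes, and in 1.63% of all promoter entries. It was found before 1 of 11 H3 genes, that one being H3C4 through the start it shares with H2AC7, and before 0 of 6 H1 and 0 of 13 H4 genes. The H2B genes with the octamer had a median ratio of 0.84, the same as the family, and H2BC7 and H2BC11 both hold it. The CCAAT box was found before all clustered H1, H2A, H2B and H3 genes of the table but before 3 of 13 H4 genes, and the TATA box, searched as TATAAA, before 12 of 18 H2B and 9 of 11 H3 genes (10.7% of all entries). A match is a run of letters and was not tested as a site.

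Factors that make and carry histones were examined through lists of genes. Of 16 genes for transcription and 3′ end processing of histone mRNA, 0 were past 3-fold in either direction, with a median ratio of 0.06. Within 2 spot errors lay 12 of the 16, where 59.7% of all genes did. SLBP, which binds the stem-loop of histone mRNA, had a signal of 2999 in the control and 2111 after knockdown (-0.51, spot error 0.20), and NPAT, the activator of the clusters, 43.2 and 58.6 (0.44, spot error 0.22). Of 18 chaperones and carriers, 2 were lower by more than 3-fold (11.1%, beside 2.75% of all genes) and 0 were higher (3.37% of all genes). Their median was -0.23. HJURP, the chaperone that loads CENP-A at centromeres, was at 714 and 73.0, 9.77-fold lower, and ASF1B, the ASF1 copy of dividing cells that hands on H3 and H4, was at 157 and 35.2, 4.45-fold lower. The other ASF1 gene, ASF1A, had a ratio of 0.37 (spot error 0.21). Of 7 further histone genes, CENPA, the centromeric H3, was at 106 in the control and not well above background after knockdown (3.58). CENPA was 13.6-fold lower when set against the lowest detected signal of that array, which is likewise a nominal bound. MACROH2A1 at 9852 and 10305, MACROH2A2 at 133 and 133, H2AJ at 17295 and 21875 and H3-5 at 26964 and 22097 lay within 2 spot errors, and H2BW1 and H2AB1 were below background on both arrays.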

How the data were processed

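Total RNA of both MRC-5 cultures was labelled with Cy3 and read on a SurePrint G3 Human GE 8x60K v2 array, 1 for each culture. Scanner output was deposited with the intensity of each spot, background-subtracted and detrended by Feature Extraction (11.5.1.1 per the file headers, 12.0.3.1 per the submitters' processing notes) and not scaled between arrays, and a table of normalized intensity values, equal for single-spot probes to the scanner intensity times 3.65 for control siRNA and 3.54 for periostin siRNA. How they normalized is not given in the sources used here. The array was designed on hg19; GRCh38.p14 is used only for names and promoter sequence.

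Intensities were put on the log2 scale, and each array was centred on its 75th percentile over 58717 spots that are not controls (372 and 383). The brightest probe, by mean log2 signal, stood for a gene. If a single array had it above background, the fold is a nominal bound. It is set against the dim spot's signal or the lowest detected signal there (7.43 and 7.89 before scaling), whichever is higher. The detection limit of the spot itself may lie above both. With neither array above background no ratio is given. Names came from RefSeq accessions, which matched 65.1% of the spots. A pooled SD of 0.12 between replicate spots, over 667 probes printed 10 times, served as the limit for calling a value moved. The number of arrays, 1 per condition, limits the precision. Every histone gene with a ratio is given except 1, which enters the counts and medians and is not reported here, and of other lists the genes past 3-fold, SLBP, NPAT and CENPA by rule; the rest were chosen after their values were seen. Members and lists were chosen with earlier results of these data known. Scaling and gene-level ratios were tested on simulated data. Changes were simulated only in genes bright with control siRNA, with the same detection on both arrays. Changes of dim genes and nominal bounds were therefore not tested in this way. Python 3.11.15, pandas 2.3.3, numpy 2.4.6, R 4.3.3 and limma 3.58.1 were used. Alternatives covered background correction (normexp on the median spot brightness), scaling, the probe that stands for a gene, filters, thresholds and grouping. Promoters came from RefSeq, which held an entry for 68 of the 75 genes. Probe sequences were not used here.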

Additional observations from a re-analysis of the deposited data

How the results depend on the processing

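No paired analysis was possible because the cultures have no replicates, which also leaves none to leave out. Naming probes by a gene name column was not run, since the scanner files used here hold none. The dimmest probe and the medians of single families were added after seeing the data. Normexp left 4 histone genes lower by more than 3-fold in place of 9, and gave -2.99 for POSTN in place of -3.24; its offset pulls dim probes towards 0 by construction. Scaling on the median moved the median of all genes by -0.13 and gave 0.048 for the clustered median, -1.04 for the variant median and -3.37 for POSTN. Counting H1 genes outside the clusters as variants gave a variant median of -0.42 and a gap of 0.60, and counting each protein once gave a clustered median of 0.59 and a gap of 1.50. At 2-fold, 3 histone genes were higher (H1-2, H2BC5 and H2BC14). The H4 median turned to -0.084 under scaling on the median.

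Of 69 single genes, 60 kept their sign under all settings. Under scaling on the median H1-10 gave -0.037, H2AC25 -0.021, H2AC4 -0.0072, H4C11 -0.084 and H4C12 -0.097. H2AC25 gave -0.00039 under quantile normalization and H2BC26 0.018 without scaling. With the mean over probes H2AC17 gave -0.051 and H4C4 -0.58, and with the dimmest probe H2AC17 gave -0.62, H3C10 0.41 and H4C4 -1.30. The other alternatives run for them kept the clustered and variant medians, their gap and POSTN within the SD between replicate spots. POSTN was not run with the filter on detection on both arrays. Alternatives that shift a whole array by a constant cannot change the gap. Leaving out flagged spots could not change it either, as no histone spot was flagged.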
